A study of Mus musculus with 24 samples.

Results

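Pre-granulosa cells and Sertoli cells, the supporting cells that surround germ cells in the fetal ovary and the fetal testis, were compared at embryonic day E15.5 across all genes. The comparison rested on 6 of the 24 RNA libraries of the series, chosen by their labels: 3 of sorted XX cells and 3 of sorted XY cells. The XX cells carried the Tg(Enh8-mCherry) transgene and the XY cells came from SOX9-IRES-GFP mice. Both were taken from fetal gonads by fluorescence-activated cell sorting, about 40000 cells to a library, and polyadenylated RNA was amplified with a low-input kit that has no molecular identifiers. No strain, litter or number of pooled embryos is given in the labels, so p-values measure the spread between libraries of a group, which may be technical. That spread was estimated from all 24 libraries of the series, not from the 6 of E15.5 alone. The others were XX and XY libraries of younger stages, E11.5, E12.5 and E13.5. Sex, mouse line and fluorophore changed together, and their parts in a difference cannot be told apart. In the SOX9-IRES-GFP line GFP follows Sox9, so the level of Sox9 in XY cells is partly set by the sort. What the Enh8 element is was not stated in the labels.

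Both cell types descend from a common bipotential precursor of the gonad. In XY gonads SRY turns on SOX9, which drives the Sertoli programme with DMRT1 and FGF9, and Sertoli cells then enclose germ cells in cords, secrete anti-Müllerian hormone (AMH) and direct Leydig cells through desert hedgehog. In XX gonads RSPO1 and WNT4 signal through beta-catenin and the transcription factors FOXL2 and RUNX1 act in pre-granulosa cells, which stop dividing while germ cells enter meiosis around them. Fetal Sertoli cells keep dividing.

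Total counts of the 6 libraries lay between 11275251 (XX replicate 1) and 24487268 (XY replicate 1), and a count of 3, taken as the floor, was worth between 0.13 and 0.261 CPM (counts scaled to a library of 1000000). Intervals and floors cover counting error only. Libraries of a group correlated with each other at a Spearman's rho of 0.991 to 0.995 over genes, and no pair was a copy. The sex-label genes went with the labels: Xist was at 84.9, 97.8 and 78.4 CPM in XX and 0.0434, 0.0561 and 0.38 CPM in XY, and Ddx3y at 0 in XX and 139.8, 143 and 115 CPM in XY. The cell-type labels were set beside 4 markers that were given with the comparison. Calb1 was at 599, 536 and 531 CPM in the 3 XX libraries and 0.0434, 0.112 and 0.0633 CPM in the 3 XY libraries. Dmrt1 was at 1.48, 1.13 and 1.38 CPM in XX and 116, 99.4 and 109.7 CPM in XY. Serpina5 and Fshr had no count in any XX library, and their XY levels follow below. The markers went with the labels in every library. They were chosen with earlier results of these data known, so this describes the libraries and is no independent check of the labels.

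Most genes differed between the 2 kinds of cell. Of 16190 genes tested, 11230 (69.4%) were called at an adjusted p under 0.05, 5658 of them higher in XX (34.9%) and 5572 higher in XY (34.4%). A further limit of 1 on the size of the log2 difference, in either direction, left 6704 genes (41.4%), 3418 higher in XX (21.1%) and 3286 in XY (20.3%). The XX and XY libraries did not overlap for 12499 genes (77.2%). The median log2 difference over all genes tested, XX minus XY, was 0.05, and the median of its absolute value was 0.88. Differences of at least 8 on the log2 scale were called for 60 genes higher in XX and 76 higher in XY. Because so many genes passed, the counts given for gene groups below are read beside these shares, and a group with a share near them does not stand apart. Adjusted p-values come from edgeR's quasi-likelihood test with Benjamini-Hochberg adjustment over all genes tested.

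**Figure D1:**
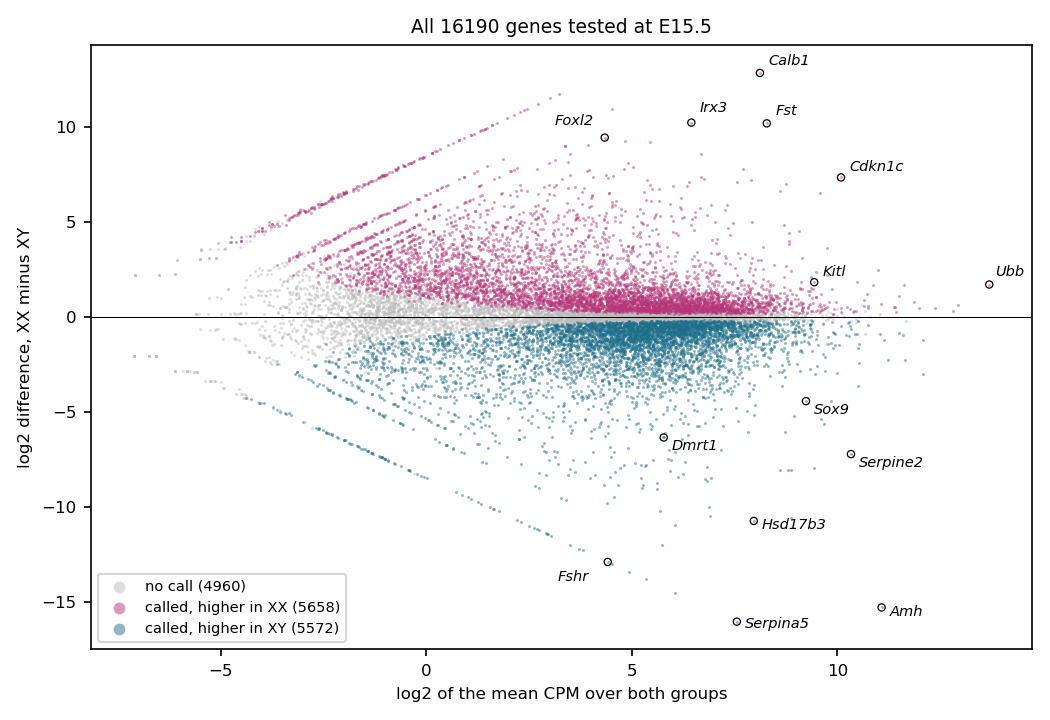
Each point is 1 of the 16190 genes tested at E15.5. The horizontal axis is the log2 of the mean CPM over both groups, the vertical axis the fitted log2 difference (XX minus XY), and colours mark the 5658 genes called higher in XX, the 5572 called higher in XY and the 4960 with no call. The straight diagonal rays at the edges are genes with 0 or very few counts in 1 group, whose fitted difference depends on the prior count of the fit.

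The 15 genes with the largest differences toward XX were led by a calcium-binding protein, and included transcription factors and an activin antagonist. Calb1, which encodes calbindin-D28k (chromosome 4, chr4:15881264-15906709, GRCm38), was 7610.1-fold (95% counting interval 2972 to 27930.5) higher in XX. Fst encodes follistatin, which binds and blocks activins. It was at 623, 589 and 657 CPM in XX and 0.26, 1.23 and 0.127 CPM in XY, a log2 difference of 10.18 (SE 0.64, adjusted p = 2.59e-11). Irx3, an Iroquois homeobox factor, was at 187, 178 and 159 CPM in XX and 0.174, 0.168 and 0.0633 CPM in XY. Foxl2, the forkhead factor that marks the granulosa lineage (chromosome 9, chr9:98955607-98958126), was at 45.8, 33.4 and 42.2 CPM in XX. In XY it had counts in 1 library only, at 0, 0.168 and 0 CPM. It was 721-fold (95% counting interval 247 to 3497) higher in XX. Lbx2, a ladybird homeobox factor, was at 234, 168 and 211 CPM in XX and 0.694, 0.337 and 0.506 CPM in XY. Isx, another homeobox factor, stood at 45.9 ± 2.48 CPM (SD, n = 3) in XX with 1 count in the XY libraries together. Kcnip1, which encodes a protein that binds potassium channels, stood at 21.2, 17.8 and 17.3 CPM in XX and had no count in XY, so it was at least 115-fold higher. Another 4 of the 15 were also without a count in XY: Iigp1, an interferon-inducible GTPase (16.1 ± 2.93 CPM in XX), the lens crystallin Crygb (13.3 ± 1.89), the carboxylesterase Ces1h (11 ± 0.56) and the cell surface protein Ly6d (10.5 ± 1.83). Oprk1, the kappa opioid receptor, stood at 20.6 ± 1.45 CPM in XX against 0.0398 ± 0.0347 in XY. Pld5 (56.6 ± 7.02 CPM in XX), Lrrtm4 (22.5 ± 2.91) and the X-linked 1700013H16Rik (20.7 ± 7.87) completed the 15, each with 3 counts at most in any XY library.

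Toward XY, the largest differences lay in secreted Sertoli products and a hormone receptor. Serpina5, a serine protease inhibitor also called protein C inhibitor (chromosome 12, chr12:104099313-104106138), was at 364, 367 and 398 CPM in XY and at 0 in each XX library, at least 1901-fold higher in XY. Amh, the hormone that removes the Müllerian ducts (chromosome 10, chr10:80805240-80807679), was at 4309, 4377 and 4279.5 CPM in XY and 0.174, 0.133 and 0.0445 CPM in XX. It was 36893-fold (95% counting interval 15809 to 113624) higher in XY. Fshr, the receptor for follicle-stimulating hormone (chromosome 17, chr17:88984952-89200675), was at 42, 41.4 and 44.7 CPM in XY and had no count in XX, at least 215-fold higher in XY. Islr2, an immunoglobulin-type membrane protein, was at 133, 98.4 and 89.4 CPM in XY with a single count in XX. Etd, an X-linked gene named for embryonic testis differentiation, was at 45.7, 48.6 and 42.2 CPM in XY and 0 in XX. The other 10 had no count in XX either. They were Jakmip2 (27.9 ± 1.71 CPM in XY), Ankrd63 (26.2 ± 4.12), the pregnancy-specific glycoprotein Psg23 (22.7 ± 3.1), Gm10240 (16.3 ± 8.98), Gm4781 (15.6 ± 0.247), Bpifa6 (15.3 ± 1.33), the Ras exchange factor Rasgrf2 (15.1 ± 0.895), the complement-type C1ql2 (13.4 ± 1.42), Magec2 (13 ± 0.964) and the semaphorin receptor Plxnb3 (12.2 ± 2.47). Reads of predicted genes such as Gm10240 and Gm4781, and of members of large families such as Psg23 and Magec2, may be shared with similar copies, and how the authors divided them is not given in the sources used here.

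**Figure D2:**
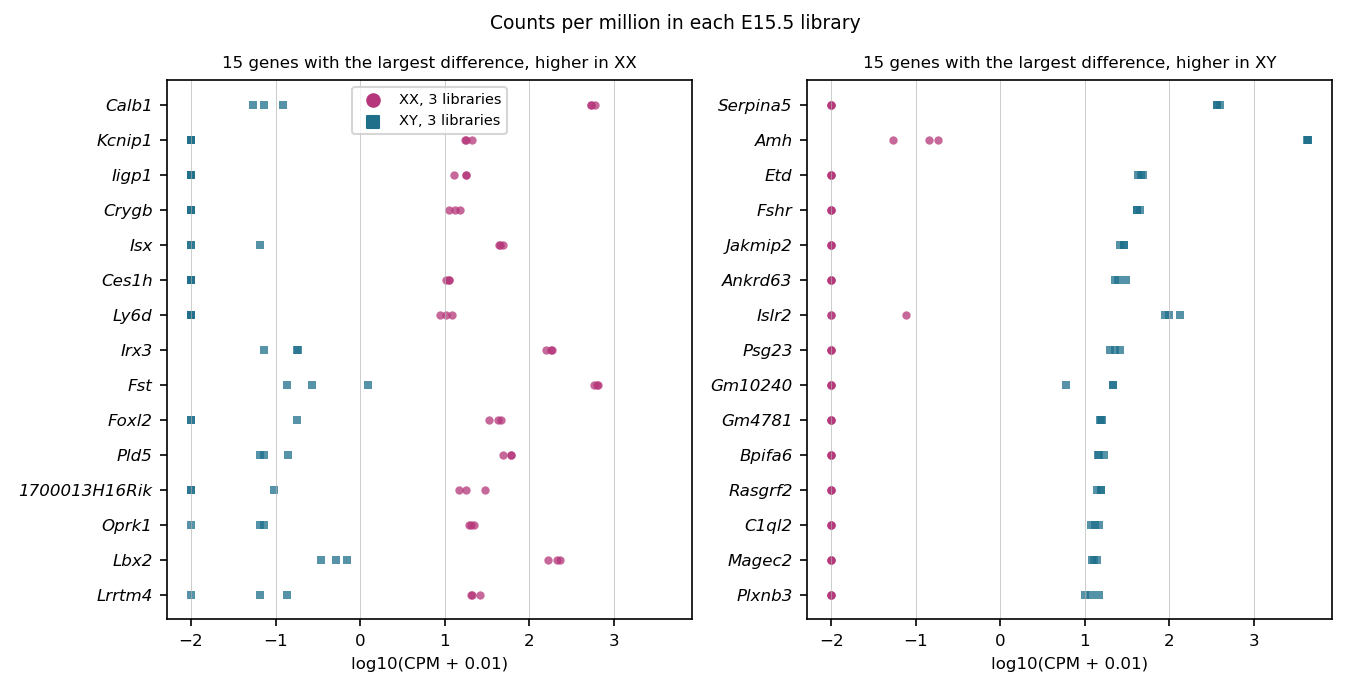
CPM of the 15 genes with the largest difference in each direction, on a log10(CPM + 0.01) axis, with 1 point for each of the 3 XX and 3 XY libraries. Points at the left edge are libraries with no count. XX and XY libraries do not overlap for any of these genes, which the selection required.

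Promoters of these leading genes were looked up in RefSeq (GRCm38.p6) to set sequence beside the differences. Of the 15 genes toward XX, 9 matched with 12 promoters, and of the 15 toward XY, 10 matched with 12. The 250 bases before each start were searched on both strands for 4 motifs of factor families that act in the gonad. The SOX motif was AACAAT. The FOX motif was TGTTTAC. The GATA motif was AGATAA. The NR5A motif was CAAGGTCA. None of these motifs contains another. The promoters of 6 genes are shown: the 4 that held a motif, and those of Fshr and Foxl2, which held none and belong to the receptor and the regulator described above. Each runs 5′ to 3′ on the gene's strand up to the base before the transcript start in the table, and capitals mark the motif or its reverse complement.
Serpina5 (chr12:104100863-104101112, plus strand): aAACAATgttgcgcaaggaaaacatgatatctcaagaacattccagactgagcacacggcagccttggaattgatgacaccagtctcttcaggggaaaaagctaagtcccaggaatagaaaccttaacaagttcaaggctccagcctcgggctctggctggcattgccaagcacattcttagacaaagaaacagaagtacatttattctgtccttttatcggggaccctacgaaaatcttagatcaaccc
Psg23 (chr7:18616502-18616751, minus strand): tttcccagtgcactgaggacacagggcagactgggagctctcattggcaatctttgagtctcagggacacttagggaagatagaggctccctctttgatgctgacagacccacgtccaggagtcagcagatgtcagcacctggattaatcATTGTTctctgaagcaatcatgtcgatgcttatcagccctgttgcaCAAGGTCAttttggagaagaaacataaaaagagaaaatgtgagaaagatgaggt
Plxnb3 (chrX:73756853-73757102, plus strand): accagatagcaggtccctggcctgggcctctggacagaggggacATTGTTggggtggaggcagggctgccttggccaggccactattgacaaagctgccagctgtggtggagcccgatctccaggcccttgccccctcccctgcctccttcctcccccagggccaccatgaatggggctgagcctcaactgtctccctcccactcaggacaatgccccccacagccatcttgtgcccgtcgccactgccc
Fshr (chr17:89200676-89200925, minus strand): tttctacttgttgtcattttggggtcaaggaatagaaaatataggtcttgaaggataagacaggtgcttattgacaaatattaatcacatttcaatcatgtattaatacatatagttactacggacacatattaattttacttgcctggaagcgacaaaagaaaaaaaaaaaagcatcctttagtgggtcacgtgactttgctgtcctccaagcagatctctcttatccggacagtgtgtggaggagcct
Ces1h (chr8:93379778-93380027, minus strand): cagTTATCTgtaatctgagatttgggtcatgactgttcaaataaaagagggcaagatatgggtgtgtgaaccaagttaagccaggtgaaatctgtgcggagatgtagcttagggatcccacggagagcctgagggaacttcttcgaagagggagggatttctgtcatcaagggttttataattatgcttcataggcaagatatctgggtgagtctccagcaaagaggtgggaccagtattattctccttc
Foxl2 (chr9:98955357-98955606, plus strand): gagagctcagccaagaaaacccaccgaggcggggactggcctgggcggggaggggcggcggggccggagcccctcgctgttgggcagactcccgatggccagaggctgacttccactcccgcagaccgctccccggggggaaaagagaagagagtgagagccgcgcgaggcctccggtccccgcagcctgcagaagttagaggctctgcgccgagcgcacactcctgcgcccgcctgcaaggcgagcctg
The SOX letters were in 3 of 12 promoters toward XY (25.0%), those of Serpina5, Psg23 and Plxnb3, and in 0 of 12 toward XX. Over all 32851 promoters of the table they were in 9.42%, and over the 15755 promoters of genes tested here in 5.37%. The NR5A letters were in the Psg23 promoter (1.07% of promoters of tested genes) and the GATA letters in that of Ces1h (6.23%). The FOX letters were in none of the 24 (2.16%). These matches are descriptions of sequence, not sites of binding, and no test was made of them. The stretches of Serpina5 and Plxnb3 lie inside the genes as listed, which start at chr12:104099313 and chrX:73756556. Each of these 2 stretches thus precedes a transcript start within the gene.

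By level, the transcripts that set the 2 cell types apart among abundant genes were compared in TPM, transcript levels scaled by length and by library. In XX the genes with the highest mean TPM among those called with a log2 difference of at least 1 either way included Ubb, Gm10925, Malat1, Gstm2, Calm2, Atpif1, Maged2, Anxa2 and Cdkn1c. In XY they were Gstm2, Clu, Ubb, Gstm1, Gm10925, Amh, Defb19, Cst9, Maged1 and Malat1. Polyubiquitin Ubb was at 20564 ± 2541 TPM in XX and 6423 ± 399.6 TPM in XY. Clu, the secreted chaperone clusterin, was at 6494 ± 123 TPM in XY and 823 ± 107 TPM in XX. The glutathione transferases Gstm1 and Gstm2 were both higher in XY, with log2 differences of -2.29 (adjusted p = 2.82e-13) and -1.21 (adjusted p = 8.86e-05). Amh reached 3945 ± 111 TPM in XY, close to the beta-defensin Defb19 at 3832 ± 113 TPM and the cystatin Cst9 at 3302 ± 158 TPM, 3 secreted products of Sertoli cells. The paralogues Maged1 and Maged2 went opposite ways: Maged1 was at 5324 in XY and 1093 in XX (mean CPM), and Maged2 at 3439 in XX and 623 in XY. Ubb, Gm10925, Calm2 and the Gstm genes have near-identical relatives, and their values are uncertain to that extent. The genes of highest TPM without a call included the mitochondrial ATP6 (log2 -0.24, adjusted p = 0.209) and ND1, the ribosomal Rps14 and the RNA-binding Hnrnpk (log2 -0.03, adjusted p = 0.73).

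Genes known for Sertoli identity were all higher in XY. All 16 tested were called in that direction, past a log2 difference of 1 in size, with a median of -7.80 (-6.99 with the 3 genes at 0 in XX set to their bound). Among the transcription factors, Sox9 was at 1125, 1142 and 1193 CPM in XY and 50.4, 57.4 and 52.1 CPM in XX (log2 -4.44, SE 0.33, adjusted p = 3.02e-10). Its relatives followed: Sox8 was at 157 ± 10.6 CPM in XY against 0.828 ± 0.337 in XX, and Sox10 at 9.95 ± 1.36 CPM in XY with no count in XX. Dmrt1, which holds the male fate, differed by -6.35 on the log2 scale (SE 0.30, adjusted p = 1.76e-13). Among secreted factors, Dhh stood at 920.2, 939 and 968 CPM in XY and 0.521, 0.866 and 0.49 CPM in XX. Ptgds, the prostaglandin D synthase, stood at 894 in XY and 3.43 in XX and Cst9 at 1382 in XY and 5.42 in XX (mean CPM). Fgf9, which opposes WNT4 earlier in the testis, was the member with the smallest difference and a low level, 6.62 ± 0.457 CPM in XY and 2.62 ± 0.27 in XX (log2 -1.34, adjusted p = 1.67e-06). Mro and Aard were called higher in XY with XX levels that were not near 0, at 144 ± 10.6 and 14.4 ± 3.44 CPM.

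Genes known for pre-granulosa identity were all higher in XX. All 14 were called in that direction with a log2 difference of at least 1, with a median of 6.93. Both identity lists were chosen with the direction in earlier results of these data known, so their counts describe the libraries and are no independent evidence. Wnt4 was at 78.7, 74 and 82.8 CPM in XX and 0.911, 0.674 and 0.823 CPM in XY. Rspo1, the secreted WNT amplifier, was at 36.9, 28.9 and 32.7 CPM in XX and 0.174, 0.168 and 0.253 CPM in XY. Runx1 was at 71.6 ± 2.22 CPM in XX and 1.36 ± 0.249 in XY, and Bmp2 at 45.3 ± 3.12 against 0.814 ± 0.322. Gng13, a G-protein subunit, had 59.6 ± 6.37 CPM in XX and 0.217 ± 0.0403 in XY. Kitl, the ligand for KIT on germ cells, was present in both, at 1076, 1068 and 1101 CPM in XX and 326, 317 and 273 CPM in XY (log2 1.82, adjusted p = 8.12e-12). Lgr5 likewise had an XY level well above the floor, at 80.2 ± 3.36 CPM.

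Transcription factors that both lineages share from the bipotential gonad did not go 1 way. Of 12 tested, 4 were higher in XX and 6 in XY. Nr5a1, the steroidogenic factor 1 gene, was at 357, 338 and 369 CPM in XY and 73.7, 90.6 and 54.2 CPM in XX. Gata4 stood at 767 in XY and 136 in XX (mean CPM; log2 -2.50, adjusted p = 4.45e-09), and the Polycomb member Cbx2, which is needed for male development, at 91.4 in XY and 7.41 in XX. Lhx9, a LIM homeobox factor of the gonadal ridge, was at 186, 189 and 175 CPM in XX and 3.08, 4.72 and 4.11 CPM in XY, and Emx2 at 123 in XX and 5.52 in XY (mean CPM). Wt1 was high in both, at 432 ± 44.7 CPM in XX and 591 ± 7.63 in XY, and the difference of -0.45 was small but called (adjusted p = 0.00186). In each of these 6 genes the XX and XY libraries did not overlap, which held for 77.2% of all genes tested.

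**Figure D3:**
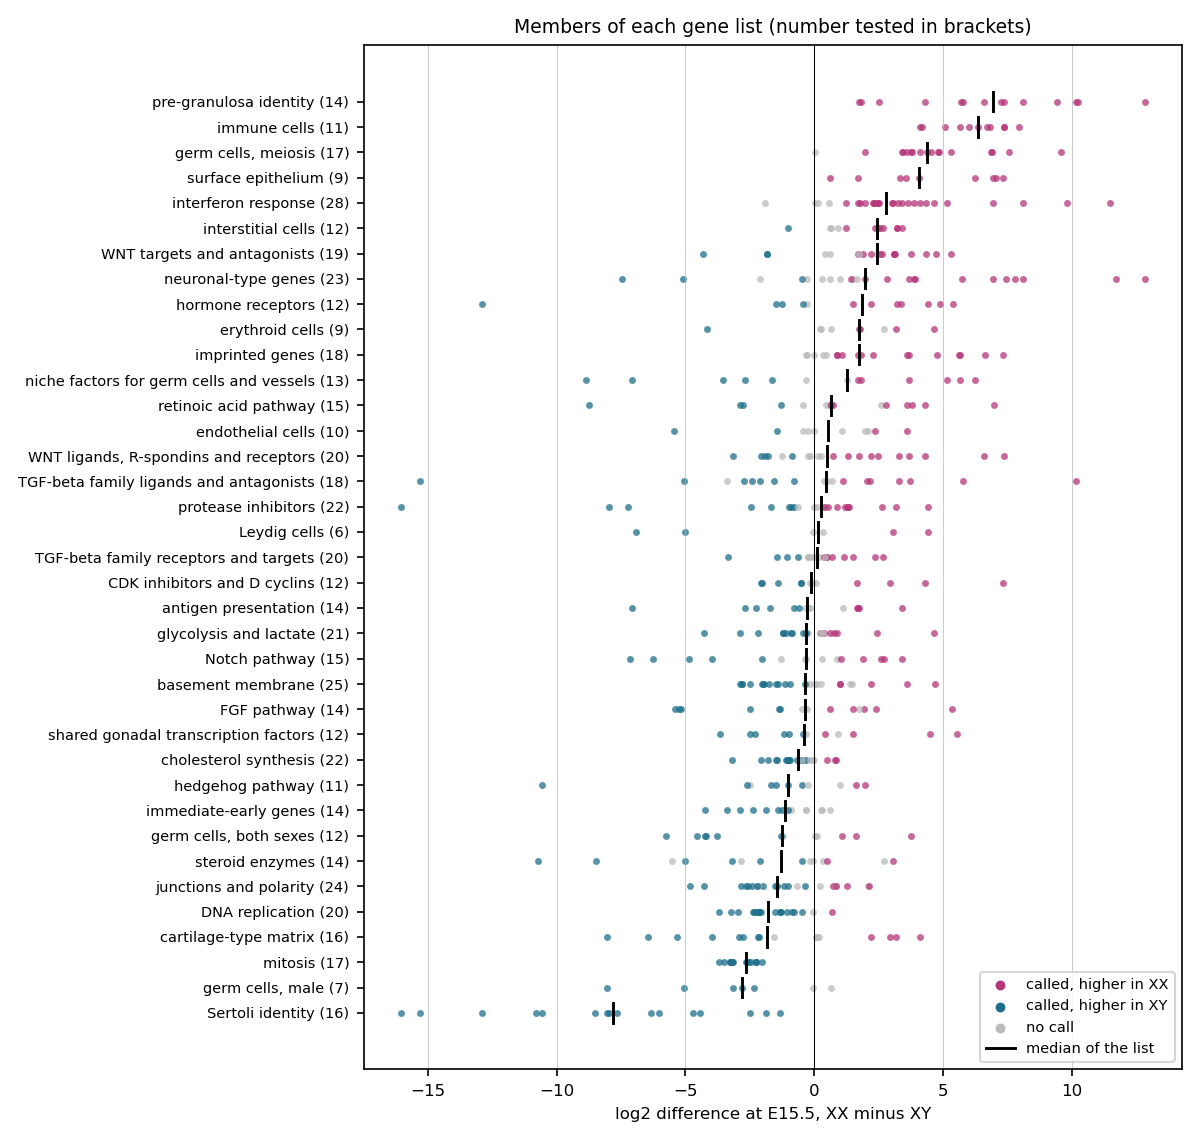
Log2 difference at E15.5 (XX minus XY, horizontal axis) of the members of each gene list that were tested, with 1 row to a list, 1 point to a gene and a black bar at the list's median. Lists are ordered by median, from Sertoli identity at -7.80 to pre-granulosa identity at 6.93, and the rows include markers of other cell types.

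In the TGF-beta family, ligands split between the sexes. Of 18 ligands and antagonists tested, 7 were called higher in XX and 7 in XY. The inhibin subunits were higher in XY: Inha, whose product pairs with a beta subunit to form inhibin, was at 1064, 1095 and 1198 CPM in XY and 184, 166 and 152 CPM in XX, and Inhbb stood at 107 in XY and 20.2 in XX (mean CPM). The BMP ligands were higher in XX, with Bmp2 at a log2 difference of 5.79, Bmp7 at 3.30 and Bmp4 at 2.18. The antagonist Fst lay toward XX, as described above. Receptors differed less. Among 20 receptors and targets, 8 were higher in XX and 4 in XY, the median absolute log2 difference was 0.47, and 60.0% were called, below the 69.4% of all genes. Amhr2, the receptor for AMH, was at 623, 624 and 473 CPM in XX and 486, 498 and 536 CPM in XY (log2 0.18, SE 0.15, adjusted p = 0.294). The type I receptor Acvr1b was the member furthest toward XY, at 91.2 in XY and 9.06 in XX (mean CPM). The BMP target Id1 was at 295 in XY and 109.8 in XX and Id3 at 535 in XY and 259 in XX, both called higher in XY.

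WNT signalling genes lay mostly toward XX. Of 19 targets and antagonists tested, 12 were called higher in XX and 3 in XY, with a median log2 difference of 2.42, against 34.9% and 34.4% of all genes. Axin2, a feedback target of beta-catenin, was at 47.3, 50.1 and 50.7 CPM in XX and 5.68, 5.56 and 5.89 CPM in XY. Lef1, a nuclear partner of beta-catenin, was at 92.1 in XX and 2.38 in XY and the feedback inhibitor Nkd1 at 62.7 in XX and 2.32 in XY (mean CPM). The 3 toward XY were Tcf7 (40.8 in XY and 11.51 in XX), Nkd2 (174 in XY and 49.1 in XX) and the secreted antagonist Wif1 (6.9 in XY and 0.296 in XX), so Nkd1 and Nkd2 went opposite ways. Of 20 ligands and receptors tested, 10 were higher in XX and 5 in XY. Wnt6, a ligand also made by epithelia, went toward XY, at 1026, 988 and 1102 CPM against 318, 344 and 236 in XX (log2 -1.80, adjusted p = 1.73e-07). The R-spondin receptor Lgr4 stood at 393 in XX and 40.4 in XY (mean CPM) and the coreceptor Lrp5 at 36.4 in XY and 9.8 in XX.

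In the hedgehog pathway, of 11 genes tested, 6 were higher in XY and 2 in XX, and 72.7% were called, near the 69.4% of all genes. Besides the ligand Dhh, the receptor Ptch1 was at 77.8 in XY and 24.3 in XX and the inhibitor Sufu at 39.1 in XY and 13.9 in XX (mean CPM). Gli3, mainly a repressor, went toward XX at 44.1 in XX and 14.4 in XY. The target Gli1 was under 1 CPM in both groups (0.111 ± 0.192 in XX and 0.66 ± 0.255 in XY), and its call was lost without XX replicate 1, XX replicate 3 or XY replicate 2, at adjusted p of 0.0849 to 0.142. It was also lost in both limma-trend fits of log2(TPM + 1), at a log2 difference of -0.28 (adjusted p = 0.41 and 0.512).

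Notch genes divided 5 and 5 of 15 tested, and 66.7% were called, near the 69.4% of all genes. Notch1 was at 29.4, 30 and 29.7 CPM in XY and 0.955, 1.33 and 0.846 CPM in XX, and its ligand Jag1 at 24.1 in XY and 5.8 in XX (mean CPM). The targets Heyl (22.5 in XY and 1.43 in XX) and Nrarp (3.59 in XY and 0.0148 in XX) and the modifier Lfng (40.2 in XY and 0.53 in XX) also lay toward XY. The targets Hes1 and Hey1 lay toward XX, at 175 in XX and 16.4 in XY and 18.6 in XX and 2.85 in XY.

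In the FGF pathway, 2 receptors and 3 genes that respond to FGF lay on opposite sides. Of 14 tested, 5 were higher in XX and 6 in XY. Fgfr2, the receptor through which FGF9 acts in Sertoli precursors, was at 169.9, 266 and 230.3 CPM in XX and 8.46, 4.21 and 3.48 CPM in XY (log2 5.33, SE 0.36, adjusted p = 8.21e-11). Some genes that report activity of the ERK pathway lay the other way. Dusp6, an ERK phosphatase, was at 489, 501 and 468 CPM in XY and 11.46, 14.2 and 15 CPM in XX, Etv5 at 140.2 in XY and 3.31 in XX (mean CPM) and Etv4 at 19.8 in XY and 0.502 in XX. Fgfr1 stood at 18.8 in XX and 3.52 in XY, toward XX with Fgfr2. The remaining receptors and responding genes of the list are not described here.

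Retinoic acid handling differed at both ends of the pathway. Retinoic acid drives germ cells into meiosis in the ovary and is broken down by CYP26B1 in the testis. Cyp26b1 was at 102, 94.5 and 99 CPM in XY and 0.174, 0.466 and 0.0891 CPM in XX. Dhrs3, which turns retinal back to retinol, was at 909, 705 and 965 CPM in XX and 5.25, 7.75 and 7.4 CPM in XY. The synthetic enzyme Rdh10 lay toward XX at 49.7 in XX and 3.56 in XY (mean CPM), while Aldh1a1 lay toward XY at 829 in XY and 339 in XX, and so did the receptor Rara at 171 in XY and 23.6 in XX and the retinol transporter Stra6 at 56.1 in XY and 8.38 in XX. In all, 8 of 15 tested were higher in XX and 4 in XY.

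Growth factors for germ cells, vessels and Leydig cells were also divided, 6 of 13 toward XX and 5 toward XY. Gdnf, which sustains spermatogonia, was at 42.1, 39.9 and 37.8 CPM in XY and 0, 0 and 0.178 CPM in XX. Pdgfa stood at 166 in XY and 25.6 in XX (mean CPM). Toward XX, Igf1 was at 159.8, 156 and 201 CPM against 4.08, 5.0 and 5.63 in XY, Igf2 at 143 in XX and 2.82 in XY (mean CPM), the vessel factor Angpt2 at 31.6 in XX and 0.422 in XY and neurturin, Nrtn, at 39 in XX and 2.95 in XY.

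Of 12 hormone receptors tested, 7 were called higher in XX and 4 in XY, Fshr among the latter. Esr1, the oestrogen receptor alpha gene, was at 72.3, 76.6 and 76.1 CPM in XX and 2.39, 2.41 and 2.91 CPM in XY. The prolactin receptor Prlr was at 90.9, 90.5 and 101 CPM in XX and 1.74, 2.98 and 2.03 CPM in XY, and the luteinizing hormone receptor Lhcgr at 16.2 in XX and 0.775 in XY (mean CPM). The thyroid hormone receptor Thra lay toward XY at 118 in XY and 49 in XX.

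Among steroid enzymes, Hsd17b3, which makes testosterone from androstenedione in the fetal Sertoli cell, was at 482, 503 and 516 CPM in XY and 0.521, 0.20 and 0.223 CPM in XX (log2 -10.74, SE 0.38, adjusted p = 3.19e-15). Hsd17b1 was at 242 in XY and 0.669 in XX (mean CPM), and the lipoprotein receptor Scarb1 at 241 in XY and 26.7 in XX. Hsd3b1 went the other way, at 295, 265 and 276 CPM in XX and 29.7, 34.5 and 35.4 CPM in XY. Of the genes for early steps of steroid synthesis that mark Leydig cells, Cyp11a1 was called higher in XY, at 19.4 in XY and 0.673 in XX (mean CPM; log2 -5.03, adjusted p = 1.63e-08). Star at 12.9 in XX and 13.3 in XY and Cyp17a1 at 11.2 in XX and 8.9 in XY had no call, though Cyp17a1 was called higher in XX without XY replicate 2 (adjusted p = 0.0209). Cyp19a1, the aromatase gene, did not pass the filter. In all, 6 of 14 tested were higher in XY and 2 in XX, and 57.1% were called, below the share of all genes.

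Cell division genes were higher in XY. All 17 mitosis genes tested were called higher in XY with a log2 difference of at least 1 in size, with a median of -2.63, against 20.3% of all genes in that direction. Top2a, the topoisomerase of dividing cells, was at 521, 508 and 498 CPM in XY and 70.8, 82.8 and 96.5 CPM in XX (log2 -2.61, SE 0.36, adjusted p = 2.34e-06). Mki67 stood at 127 in XY and 23.4 in XX (mean CPM), Cdk1 at 219 in XY and 35.5 in XX and the chromosome passenger kinase Aurkb at 121 in XY and 10.7 in XX. XX cells still held between 421 and 486 CPM of these 17 genes summed, and XY cells between 2953 and 3035. Of 20 DNA replication genes tested, 18 were called higher in XY and 1, Ccne1 (19.6 in XX and 12.2 in XY), in XX. The helicase subunit Mcm2 was at 367, 369 and 382 CPM in XY and 68.3, 86.8 and 58.4 CPM in XX, and the sliding clamp Pcna at 239 in XY and 115 in XX (mean CPM).

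Of 12 CDK inhibitors, D cyclins and retinoblastoma family genes tested, 4 were called higher in XX, 5 in XY and 3 in neither direction. The CIP/KIP inhibitors of cyclin-dependent kinases were 3 of the 4 toward XX. Cdkn1c (p57) was at 2022, 1925 and 2551 CPM in XX and 15.4, 15.2 and 9.43 CPM in XY, 162-fold apart (log2 7.33, SE 0.71, adjusted p = 2.36e-08). Cdkn1b (p27) was at 281, 251 and 430.3 CPM in XX and 14.6, 20.4 and 14 CPM in XY, and Cdkn1a (p21) at 35.1 in XX and 4.56 in XY (mean CPM). Each of the 3 was higher in every XX library than in any XY library. Over all genes tested, XX and XY libraries did not overlap for 77.2%. The D cyclins were split, Ccnd1 toward XX at 39.3 in XX and 12.3 in XY and Ccnd2 toward XY at 1278 in XY and 907 in XX, and the retinoblastoma relative Rbl1 lay toward XY at 58.1 in XY and 22.3 in XX.

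**Figure D4:**
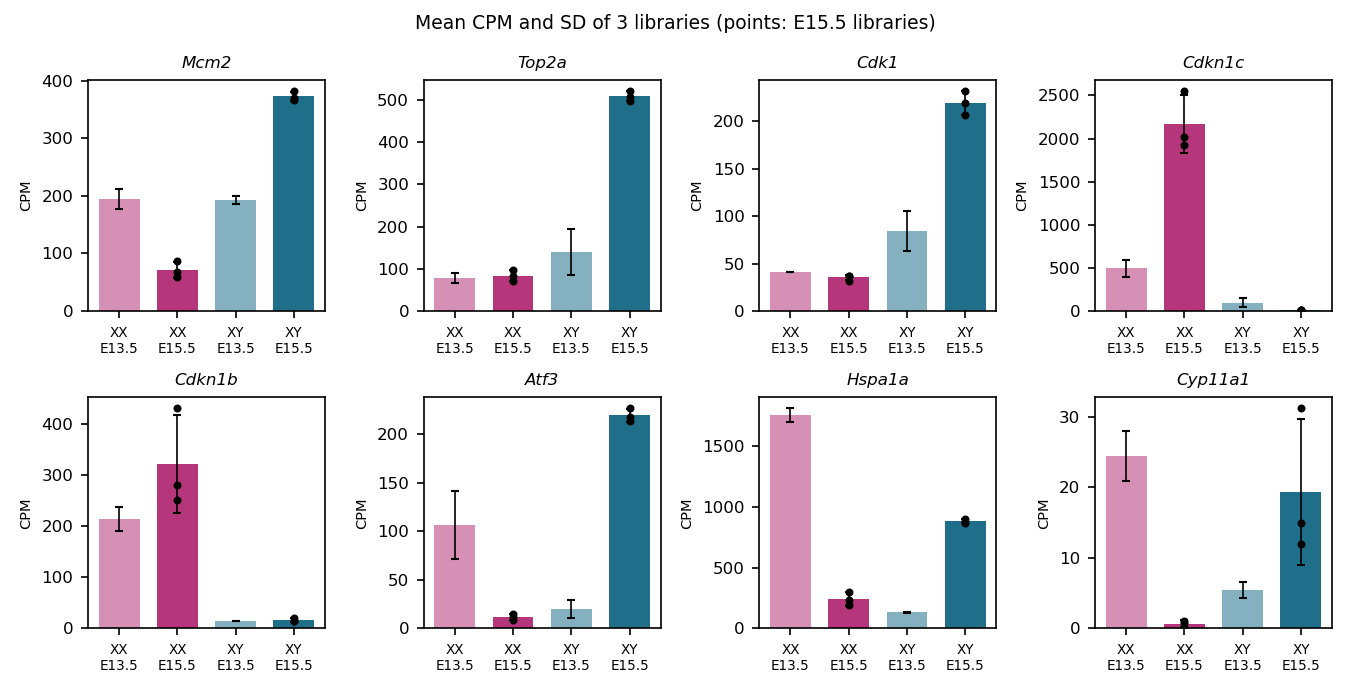
Mean CPM of 8 genes in XX and XY cells at E13.5 (pale bars) and E15.5 (full bars), each panel with its own axis from 0. Bars are means and lines the SD of 3 libraries, and points are the E15.5 libraries. At E15.5 Mcm2, Top2a and Cdk1 were higher in every XY library, and Cdkn1c and Cdkn1b in every XX library, while Atf3, Hspa1a and Cyp11a1 were higher in XX at E13.5 and in XY at E15.5.

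Imprinted genes, which are expressed from 1 parental allele and many of which restrain or promote fetal growth, lay toward XX. Of 18 tested, 13 were called higher in XX and 0 in XY, where 34.9% and 34.4% of all genes were. H19 was at 848, 788 and 674 CPM in XX and 7.81, 8.25 and 7.09 CPM in XY, and Igf2, which lies beside it, at 159, 127 and 144 CPM in XX and 3.04, 2.75 and 2.66 CPM in XY. Peg3 stood at 1593 in XX and 131 in XY (mean CPM) and Mest at 546 in XX and 42.3 in XY. Cdkn1c, described above, is also imprinted. The other 5 had no call, with log2 differences between -0.31 (Nnat, a neonatal membrane protein) and 0.45. Nnat was called higher in XY in both fits of TPM with a filter and in the fit of the E15.5 libraries alone (adjusted p 0.00978 to 0.0395).

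Genes of the tubule wall and its cell contacts were mostly higher in XY. Of 24 junction and polarity genes, 14 were called higher in XY and 4 in XX, with a median of -1.45. Gja1, the connexin 43 gene, was at 2535, 2529.5 and 2390.0 CPM in XY and 436, 453 and 508 CPM in XX. Cldn11, a claudin of the Sertoli barrier, stood at 77 in XY and 3.97 in XX (mean CPM), Jam2 at 277 in XY and 9.69 in XX, the P-cadherin gene Cdh3 at 140.3 in XY and 23.4 in XX and Espn, which bundles actin, at 394 in XY and 63.8 in XX. Cgn, the tight-junction plaque protein cingulin, was the largest exception, at 1031, 981 and 1182 CPM in XX and 233, 251 and 253 CPM in XY (log2 2.12, adjusted p = 4.32e-11).

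Basement membrane genes differed by subunit. Of 25 tested, 13 were higher in XY and 5 in XX, and 72.0% were called, near the 69.4% of all genes. The type IV collagen chains Col4a1 and Col4a2 were higher in XY, at 283 in XY and 40.5 in XX and 217 in XY and 54.2 in XX (mean CPM), while Col4a5 and Col4a6 were higher in XX, at 43 in XX and 21.4 in XY and 6.82 in XX and 0.535 in XY. Each pair is transcribed from a shared promoter region. Among the laminins, Lama1 (168 in XY and 63 in XX), Lamb1 (283 in XY and 129.8 in XX) and Lamb2 (152 in XY and 37.1 in XX) were higher in XY and Lamc1 (75.8 in XX and 37.6 in XY) in XX. Dag1, the dystroglycan receptor for laminin, was at 1488, 1432 and 1437 CPM in XY and 203, 248 and 148 CPM in XX. Npnt, nephronectin, lay toward XX at 20.5 in XX and 0.774 in XY.

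Genes known from cartilage were among those toward XY. Of 16 tested, 8 were higher in XY and 4 in XX. Col9a3 was at 809.6, 744 and 769.8 CPM in XY and 4.34, 2.47 and 2.27 CPM in XX, Col9a2 at 101 in XY and 6.41 in XX (mean CPM) and Col2a1, at a lower level, at 7.69 in XY and 0.198 in XX. These are known targets of SOX9 in cartilage. The SOX partners in chondrocytes went opposite ways, Sox5 at 77.4 in XX and 10.1 in XY and Sox6 at 51.2 in XY and 7.64 in XX.

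Among 22 protease inhibitors, 10 were called higher in XX and 8 in XY. Serpine2, protease nexin 1, was with Serpina5 and Cst9 far toward XY, at 2549, 2541 and 2592 CPM against 13.2, 17.9 and 20.1 CPM in XX. Serping1, the complement C1 inhibitor, was far toward XX at 62.7 in XX and 2.9 in XY (mean CPM). Serpinh1, a chaperone of collagen, was high in both, at 2210.3 ± 129 CPM in XX and 2028 ± 162 in XY, with no call (log2 0.12, SE 0.11).

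Genes of lipid and sugar metabolism differed in size about as all genes did, with a median absolute log2 difference of 0.81 for cholesterol synthesis and 0.88 for glycolysis and lactate, beside 0.88 over all genes. Of 22 genes of cholesterol synthesis and its control, 15 were called higher in XY and 3 in XX, with a median of -0.63. The regulator Srebf2 was the member furthest toward XY, at 204, 204 and 189 CPM against 20.6, 25.7 and 18.9 CPM in XX. The reductase Dhcr7 stood at 119.5 in XY and 34.6 in XX (mean CPM), whereas Hmgcs1 lay toward XX at 411 in XX and 289 in XY. Of 21 genes of glycolysis and lactate transport, 11 were higher in XY and 7 in XX. The lactate exporter Slc16a3 was at 209, 202 and 216 CPM in XY and 9.81, 15 and 7.44 CPM in XX, and hexokinase Hk1 at 178 in XY and 24.4 in XX (mean CPM). Aldoc lay toward XX at 58.2 in XX and 10.8 in XY. Sertoli cells are known to feed lactate to germ cells.

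Interferon-response genes lay toward XX. Of 28 tested, 24 were called higher in XX with a log2 difference of at least 1 and 0 in XY, with a median of 2.77, where 21.1% of all genes were called in that direction by that rule. Ifit1 was at 18.5, 13.1 and 15.8 CPM in XX and 0.13, 0 and 0 CPM in XY. Igtp, an immunity-related GTPase, was at 56.3, 54.4 and 50 CPM in XX and 5.77, 3.99 and 7.28 CPM in XY. Ifi27 had no call (mean CPM 208 in XX and 139.5 in XY), but was called higher in XX in 6 alternatives (adjusted p 1.63e-05 to 0.0498). The 30 genes found in the table summed to between 745 and 815 CPM in XX and 275 to 289 in XY. Immune-cell markers, at low levels, were also higher in XX (values below), and their part in this result was not tested. Antigen presentation genes, which interferon also raises, did not go 1 way: 4 of 14 were higher in XX and 6 in XY, with B2m at 224 in XY and 46.8 in XX and the proteasome subunit Psmb10 at 29.7 in XX and 9.47 in XY.

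Genes better known from neurons lay mostly toward XX. Of 23 tested, 13 were called toward XX and 3 toward XY, with a median log2 difference of 1.98. Over all genes, 34.9% and 34.4% were called in those directions. The share called in either direction, 69.6%, was near the 69.4% of all genes. The largest in XX were Calb1 and Kcnip1, given above, and the muscarinic receptor Chrm4 at 5.04 in XX and 0.0332 in XY (mean CPM). Tubb3, neuronal tubulin, went toward XY at 124, 112 and 117 CPM against 0.695, 0.933 and 0.445 CPM in XX. Snap25, another member of the list, was under the floor in both groups, at 0.0148 in XX and 0.104 in XY. Whether neurons were among the sorted cells was not tested.

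Immediate-early and heat-shock genes, which rise within minutes of stress such as dissociation and sorting, lay toward XY. Of 14 tested, 8 were called higher in XY and 0 in XX, where 34.4% and 34.9% of all genes were. In all, 57.1% were called, below the 69.4% of all genes. Jun was at 3058, 3158 and 3197 CPM in XY and 1275, 1631 and 1099.8 CPM in XX. Atf3 was at 214, 227 and 218 CPM in XY and 8.51, 11.46 and 14.7 CPM in XX, and Nr4a1 at 173 in XY and 16.5 in XX (mean CPM). Hspa1a, whose reads may be shared with its near-identical copy Hspa1b, was at 869.7, 874 and 903 CPM in XY and 231, 302 and 193 CPM in XX. The call of Hspa1b toward XY was lost without XX replicate 1, 2 or 3 or XY replicate 2 or 3 (adjusted p 0.055 to 0.0611). Fos (2134 in XY and 1149.6 in XX, adjusted p = 0.091) and Ier2 (1872 in XX and 1224 in XY, adjusted p = 0.0527) had no call. Ier2 was called higher in XX in 5 alternatives (adjusted p 1.07e-05 to 0.0495), and Fos higher in XY in the fit of the E15.5 libraries alone (adjusted p = 6.29e-07). The 2 lines were sorted by different fluorophores, and handling cannot be told apart from sex.

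Markers of other cell types were present in both groups and differed between them. Meiosis genes of germ cells were called higher in XX for 16 of 17, and the 17 summed to between 397 and 559 CPM in XX and 91 to 108 in XY. Sycp3, of the synaptonemal complex, was at 59.2, 78.8 and 101 CPM in XX and 2.91, 3.65 and 1.9 CPM in XY, and Stra8 at 4.17, 3.07 and 5.57 CPM in XX with no count in XY. The exception, Syce2, was at 82.9 in XX and 82.3 in XY and made up most of the XY sum. Of 12 genes that germ cells of both sexes express at some stage, 3 were called higher in XX and 6 in XY, with a median of -1.25. Among the 3 without a call, Ddx4 stood at 14.3 ± 3.89 CPM in XX and 13.2 ± 3.48 in XY (log2 0.12, adjusted p = 0.758). Male germ cell genes were called higher in XY for 5 of 7, at summed levels of 46.8 to 65.2 CPM in XY and 11.6 to 11.9 in XX. In such bulk samples fewer cells of a type and less RNA per cell cannot be told apart. Of the 6 toward XY in the list for both sexes, the pluripotency genes Dppa3 (15.8 in XY and 0.864 in XX), Dppa4 (12.9 in XY and 0.193 in XX) and Pou5f1 (5.9 in XY and 0.301 in XX) were called higher in XY.

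Markers of other somatic cells of the gonad were measured too. Surface epithelium markers were called higher in XX for 9 of 9 and summed to 673 to 699 CPM in XX against 90.1 to 92.4 in XY. Upk3b, a uroplakin of mesothelium, was at 383, 367 and 377 CPM in XX and 2.73, 3.09 and 2.53 CPM in XY, and Krt19 stood at 86.4 in XX and 0.692 in XY (mean CPM). Interstitial markers were higher in XX for 8 of 12 and in XY for 1, at 527 to 748 CPM against 159 to 202, with Pdgfra at 54.3 in XX and 8.58 in XY and Nr2f2 at 53.7 in XX and 5.89 in XY. Immune markers were higher in XX for 11 of 11, at 42.7 to 48.3 CPM in XX and 0.337 to 1.14 in XY, with the complement gene C1qc at 9.74 in XX and 0.0988 in XY. Endothelial markers (2 of 10 toward XX, 2 toward XY) were called for 40.0%, below the 69.4% of all genes. They summed to 41.7 to 46.3 CPM in XX and 28.1 to 30 in XY, and the defining gene Cdh5 (2.74 in XX and 3.68 in XY) had no call. Leydig cell markers were higher in XX for 2 of 6 (Hsd3b1 and Lhcgr) and in XY for 2 (Cyp11a1 and the hormone gene Insl3), and summed to 311 to 338 CPM in XX and 60.4 to 103 in XY. Hsd3b1 made up most of the XX sum. Insl3 was at 3.13 ± 1.82 CPM in XY and at 1 count in XX. Erythroid markers were higher in XX for 4 of 9 and in XY for 1. That 1 was Alas2, the erythroid aminolevulinate synthase of heme synthesis, at 37.4, 33.9 and 35.7 CPM in XY and 1.56, 1.67 and 2.54 CPM in XX. Whether these markers came from other cells in the gate or from the supporting cells was not tested.

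The median log2 difference of X-linked genes tested was 0.18, beside 0.05 over all genes. Of 4 genes known to escape X inactivation, 1 was called higher in XX and 1 in XY. The latter was Kdm5c, a histone demethylase, at 246, 230.0 and 232 CPM in XY and 41.3, 48.6 and 49.3 CPM in XX (log2 -2.34, adjusted p = 1.72e-09). Reads of Kdm5c may be shared with its Y-linked relative Kdm5d, which stood at 47.8 ± 5.09 CPM in XY.

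To show where E15.5 differed from the stage before, the XX minus XY difference was compared with that at E13.5, in 6 further libraries made the same way. At E13.5, 10706 of 16190 genes (66.1%) were called. Of 8646 genes called at both stages, 8272 had the same sign and 374 the opposite sign. The test of the change called 4184 genes (25.8%), 2005 of them toward XX (12.4%) and 2179 toward XY (13.46%). This test and the comparison at E15.5 share the 6 libraries of E15.5, so their calls are not independent. Counts of changed genes in the gene groups below are read beside the shares of 25.8%, 12.4% and 13.46%. A fit of the 12 libraries compared alone called 6318. For XX E13.5 replicate 1, 1 label field gives E12.5 where the title gives E13.5, and without it 3457 genes were called.

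Cell division genes moved toward XY. The difference changed toward XY for 15 of 17 mitosis genes and 18 of 20 DNA replication genes, and toward XX for 0 of either. Top2a was at 79.1 ± 11.8 CPM (SD, n = 3) in XX and 139 ± 54.4 in XY at E13.5, and at 83.3 ± 12.9 and 509 ± 11.54 at E15.5, a change of -1.80 on the log2 scale (SE 0.49, adjusted p = 0.0105). The XX means of the 2 stages differed by less than their SDs, and the XY mean was higher at E15.5. Mcm2, at E13.5, was at 195 ± 17.1 CPM in XX and 193 ± 6.86 in XY, a difference within the SDs, and the change was -2.40 (SE 0.16, adjusted p = 4.25e-09). Cdkn1c changed the other way, from 495 ± 99 CPM in XX and 95.2 ± 53.7 in XY at E13.5 to 2166 ± 337 and 13.4 ± 3.41, a change of 4.96 (SE 0.81, adjusted p = 2.16e-04).

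Genes known from meiotic germ cells made up much of the largest changes toward XX. Of the 10 largest, M1ap, Meioc, Terb1 and Hormad1 act in meiosis. Meioc was at 0.754 ± 0.66 CPM in XX and 0.21 ± 0.202 in XY at E13.5 and at 17.2 ± 5.47 and 0.153 ± 0.0962 at E15.5 (change 4.95, SE 0.97, adjusted p = 8.08e-04). Hormad1 went from 0.609 ± 0.38 to 16.3 ± 1.51 CPM in XX. In the meiosis list the change was toward XX for 7 of 17 and toward XY for 1. The others of the 10 included Cdkn1c, the aldehyde oxidase Aox3 (change 3.79), Mia (3.68), the metalloprotease Adamts19 (3.62) and Nrtn (3.60). Nrtn was at 17.9 ± 5.42 CPM in XX and 16.8 ± 6.08 in XY at E13.5, and at E15.5 it was at 43.8, 37.6 and 35.6 CPM in XX and 3.99, 3.2 and 1.65 CPM in XY.

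Immediate-early and heat-shock genes changed toward XY for 10 of 14 and toward XX for 0. Atf3 was at 106 ± 34.9 CPM in XX and 19.7 ± 9.33 in XY at E13.5, the reverse of E15.5 (change -6.67, SE 1.26, adjusted p = 7.57e-04). Hspa1a was at 1755 ± 58.2 and 134 ± 4.25 CPM at E13.5 (change -5.58, adjusted p = 2.06e-05). Cyp11a1, the first enzyme of steroid synthesis, was at 24.5 ± 3.56 CPM in XX and 5.42 ± 1.18 in XY at E13.5, and at 1.04, 0.80 and 0.178 CPM in XX and 12, 31.2 and 14.9 CPM in XY at E15.5 (change -7.19, SE 0.60, adjusted p = 1.10e-07). Its direction reversed with stage. The pluripotency genes Dppa4 (change -6.29) and Dppa3 (-5.20) and the growth factor Ereg (-5.64) were also among the 10. Ereg stayed higher in XX, at 25.7 ± 4.1 CPM at E13.5 and 6.12 ± 0.947 at E15.5. Another 3 of the 10 were copies of a ribosomal protein gene or a predicted gene: Rps18-ps6 (-8.76), Rps18-ps3 (-6.81) and Gm10240 (-10.74). Gm10240 had no count in XX at E15.5 and was at 11.2 ± 14.2 CPM in XX at E13.5, and its call was lost without any 1 of 7 of the 12 libraries and in 6 other alternatives. The Sertoli gene Serpina5 was at 87.5 ± 10.1 CPM in XY at E13.5 and 376 ± 18.5 at E15.5, with the XX level near 0 at E13.5 and at 0 at E15.5. The fitted change of -6.57 (adjusted p = 0.0498) depends on that 0, and its call was lost when any 1 of the 12 libraries was left out, at adjusted p of 0.0607 to 0.127.

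Changes among identity genes went both ways. Over all genes tested, the difference was called changed for 25.8%, toward XX for 12.4% and toward XY for 13.46%. The counts below are read beside these shares, and a group near them does not stand apart. Of the 14 pre-granulosa genes the difference widened for 4 and narrowed for 0. They included Calb1 (change 2.51, adjusted p = 0.0223), Runx1 (1.83) and Kitl (adjusted p = 9.41e-05). Calb1 was at 133 ± 6.48 CPM in XX at E13.5 and 555 ± 37.7 at E15.5, and its call was lost without XY E13.5 replicate 2 (adjusted p = 0.241) or XY E15.5 replicate 1 (adjusted p = 0.0799). Of the 16 Sertoli genes, 3 changed toward XY, Serpina5, Dmrt1 (-1.96) and Sox8 (-1.39, lost without XX E13.5 replicate 2 or 3 or XX E15.5 replicate 2 or 3, at adjusted p of 0.0507 to 0.0896), and 4 toward XX, Fgf9 (2.06), Aard (3.33), Mro (1.56) and Erbb4 (2.62). In the fits of TPM the call of Erbb4 was lost in all 3 (adjusted p 0.178 to 0.243) and that of Sox8 in the 2 with a pseudocount of 1 (0.0787 and 0.117). The difference of Amh had no call of a change, with 4822 ± 452 CPM in XY at E13.5 (adjusted p = 0.972). Interferon-response genes changed toward XX for 10 of 28 and toward XY for 2, among them Gbp3 (3.23) and Rtp4 (2.32).

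**Figure D5:**
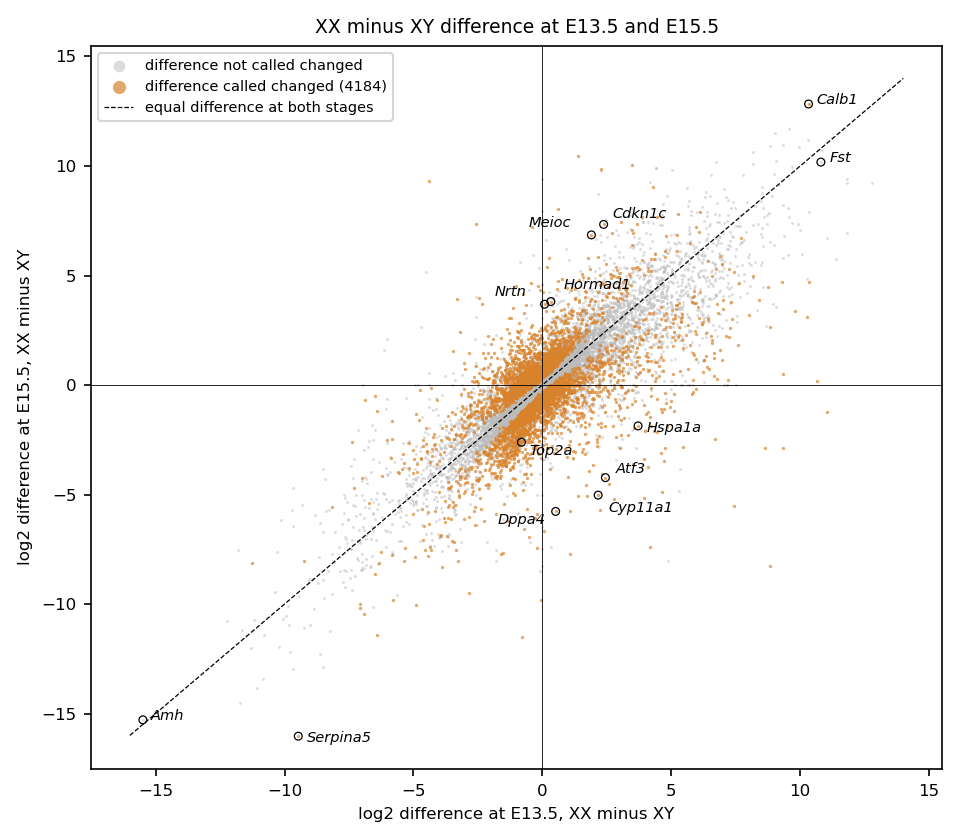
Log2 difference (XX minus XY) of each gene at E13.5 (horizontal axis) and at E15.5 (vertical axis), with the 4184 genes whose difference was called changed in orange and a dashed line where both are equal. Fst and Amh lie near the ends of the line, and Calb1 lies above it, at 10.32 at E13.5 and 12.83 at E15.5. Atf3, Hspa1a and Cyp11a1 lie below 0 at E15.5 and above 0 at E13.5.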

How the data were processed

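RNA of 24 libraries was used: XX and XY sorted cells at 4 stages in 8 groups of 3, with the 6 libraries of E15.5 carrying the comparison. The authors deposited estimated counts per gene, 17.5% of them not whole, which were rounded for the test. They also deposited TPM values, which summed to 93.9% to 96.2% of the full scale over the genes listed. The build was mm10, per the submitters' processing notes. The aligner, the counting program and the use of strand are not given in the sources used here, so overlapping, antisense and near-identical genes are uncertain. Each table held 32040 symbols, 7739 of them without a count, and 30301 (94.6%) matched RefSeq, which gave positions and types.

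The count test was edgeR 4.0.16 (R 4.3.3), with filterByExpr on the groups (16190 genes), TMM scaling, and the robust quasi-likelihood test with 1 mean per group. Residual degrees of freedom were 16, and the common biological variation (coefficient) was 17.4%. A gene was called at a Benjamini-Hochberg adjusted p under 0.05. CPM rest on library sizes after TMM, and appear as 3 library values or mean ± SD. A log2 difference is the fitted XX minus XY value. Where the lower group held no count, a fold is a bound against the mean floor of 3 counts per library. Where it held 3 counts or fewer in each library, the exact Poisson interval is given. The pipeline was tested on simulated data.

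The members, the 39 gene lists (584 genes) and the rule for naming genes were chosen with earlier results of these data known. Named were list genes, the 15 largest differences in each direction with at least 10 CPM and no overlap, the 10 largest changes from E13.5 in each direction among genes also called at E15.5 under the same 2 conditions (the CPM in any of the 4 groups), the 10 highest mean TPM per sex among genes called past a log2 difference of 1 in size, and the 5 highest (geometric mean) TPM without a call. Xist, Tsix and Y-linked genes were left out of the rankings. A few genes that these rules name are not reported here. Alternatives were DESeq2 size factors and the DESeq2 1.42.0 Wald test, no count filter, at least 10 counts in every library, a replicate block, limma-trend (limma 3.58.1) on log2(TPM + 1) and log2(TPM + 0.1), a fit of only those libraries that a contrast uses, and each library left out in turn.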

Additional observations from a re-analysis of the deposited data

Results flagged for a closer look

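The differences below changed between E13.5 and E15.5 by the test of that change, which called 4184 genes. Toward XX, the largest changes on the log2 scale included 6.03 for M1ap, 4.96 for Cdkn1c, 4.95 for Meioc, 4.36 for Terb1, 3.79 for Aox3, 3.68 for Mia, 3.62 for Adamts19, 3.60 for Nrtn and 3.48 for Hormad1. M1ap was at 2.8 ± 0.696 CPM in XX and 14.4 ± 0.297 in XY at E13.5, and at 59.9 ± 10.7 and 4.7 ± 1.01 at E15.5, so its direction turned. Toward XY, they were -10.74 for Gm10240, -8.76 for Rps18-ps6, -7.19 for Cyp11a1, -6.81 for Rps18-ps3, -6.67 for Atf3, -6.57 for Serpina5, -6.29 for Dppa4, -5.64 for Ereg, -5.58 for Hspa1a and -5.20 for Dppa3. The calls of Gm10240 and Serpina5 were lost in many alternatives, as given above. Rps18-ps6 was at 143 ± 1.44 CPM in XX at E13.5 and 0.434 ± 0.752 at E15.5, while XY stood at 68.8 ± 6.74 and 67.2 ± 4.33. Rps18-ps3 followed the same pattern, from 85.6 ± 5.97 to 0.888 ± 1.08 CPM in XX and from 41.1 ± 1.78 to 42.2 ± 2.05 in XY. Both are processed copies of Rps18, and the part that read assignment plays was not tested.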

How the results depend on the processing

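At E15.5 the number of genes called, 11230, lay between 8655 and 11333 under all alternatives, with 47.8% to 53.8% of calls toward XX. The median log2 difference over all genes moved from 0.05 to 0.08 with DESeq2 size factors and to 0.13 without XY E15.5 replicate 2. Past a log2 difference of 1 in size 6704 genes were called, and 4073 when only the 11679 genes with at least 10 counts in every library were tested. The change from E13.5 was called for 4184 genes, for 3361 to 4055 with 1 library left out, and for 6318 in the fit of the 12 libraries compared. Same-numbered XX and XY libraries of E15.5 correlated in their deviations at 0.00378, 0.0174 and -0.0218, so the numbers were not taken as pairs, and the fit with the replicate block called 11181 genes and 4104 changes. Only XX replicate 2 correlated best with the XY library of its own number. The block ended the calls of a change for Serpina5 (adjusted p = 0.0714) and Gm10240 (adjusted p = 0.0503). Of 219 genes named at E15.5, 206 kept their direction and their side of the threshold under every alternative that gave them a value, as did 24 of 30 in the test of change. Of genes without a call, Ier2, Ifi27, Nnat, Fos and Cyp17a1 gained one as given above, ND1 in the fits of TPM and of the E15.5 libraries alone (adjusted p 0.0094 to 0.017), Rps14 in the latter and without XX replicate 2 (0.00668 and 0.0368). Signs turned for 5 genes, none called as reported. Hnrnpk stood at 0.0012 with DESeq2 size factors and in the Wald test, 0.021 with at least 10 counts in every library, and 0.38 in each fit of TPM, where it was called (adjusted p 0.00156 to 0.00234). Star stood at 0.0054 with at least 10 counts in every library, and Syce2 at -0.16 in each fit of TPM. With 1 library left out, values ran from -0.065 to 0.071 for Hnrnpk, -0.15 to 0.20 for Star, -0.13 to 0.20 for Syce2, -0.10 to 0.41 for Ddx4 and -0.35 to 1.90 for the change of Amh. The cause of each shift was not tested. At the depth of these libraries a gene under about 3 counts could not be told from 0.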
